A study of Mus musculus with 4 samples.

Results

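The long noncoding genes described here are 87 genes that the authors labelled lincRNA (43 genes), antisense (17), processed_transcript (26) or sense_intronic (1) in the deposited list that names genes as unique to control. They were chosen by their place in that list, which rests on the p-values of the control and Foxp1KspKO ChIPs, and by the biotype printed beside them. The list held 3482 genes in all, out of 6799 genes listed for the control ChIP and 8666 genes in either list. Because the p-values chose the members, their p-values are given as a description and support no difference between genotypes.

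The study sought genes bound by Foxp1 in distal tubules by ChIP-seq, in which DNA recovered with an antibody is sequenced and an input library shows the chromatin before selection. It held 4 libraries of kidney tubular cells from newborn mice, with 1 ChIP and 1 input library from Foxp1KspKO mice and the same pair from their control littermates. Each group had 1 library, so no difference between genotypes has a replicate check and no test between them was made. As background, the Ksp-cadherin promoter drives Cre recombinase in tubule epithelium, so other kidney cells of a Foxp1KspKO mouse keep Foxp1. The cells were the sieved fraction of a collagenase digest, with no sort by marker. How many mice gave each library is not given in the sources used here. The label for the antibody gives the Foxp1 antibody to the Foxp1KspKO ChIP and rabbit IgG to the control ChIP, although both descriptions carry a FoxP1 prefix, so each list is called here by the genotype in the title, and what was precipitated in each is not settled. Foxp1 itself was in neither list. Of the tubule genes Cdh16, Slc12a1, Slc12a3, Umod, Aqp2 and Lrp2, Slc12a1 alone was in a list, with 0.0475 for the control ChIP in the authors' deposited table. Of Nphs1, Pecam1 and Ptprc, which mark other kidney cells, the Foxp1KspKO list held Nphs1 with 0.0212 in the authors' deposited table.

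Foxp1 is a forkhead transcription factor that acts mainly as a repressor and binds DNA through a winged-helix domain. Long noncoding RNAs are transcripts without a long open reading frame. Some, such as Malat1 and Neat1, are abundant nuclear RNAs, and many others start beside a protein-coding gene on the opposite strand and share its promoter region. For most of the genes named by a clone number ending in Rik or by Gm and a number, no function is established. Among the members, 52 symbols were of the Rik kind, 21 of the Gm kind and 14 of other kinds.

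The labels were checked against RefSeq, which held 79 of the 87 members as long noncoding and 8 as protein-coding. The 8 include Pclo, which encodes a scaffold protein of the presynaptic active zone, Vmn1r227, a vomeronasal receptor gene, and Fcor, the FoxO1 corepressor. Pclo, Vmn1r227, BC065397 and T2 also had a second row of another biotype under the same gene number, for 4 members in all. For T2 that row names T, the gene of brachyury. The symbol 5730480H06Rik stands for 2 members, 1 of which RefSeq calls Pacrgl. In the other direction, 26 genes of the unique list that RefSeq holds as long noncoding carried the label protein_coding and are therefore not members.

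Members had weaker control p-values than the unique list as a whole. Their median p-value was 0.00732, against 0.00312 for the 3482 unique genes and 0.00116 for the whole control list, all from the authors' deposited table. A control p-value under 1e-06 belonged to 8 members (9.20%), where 12.8% of the unique list had one. At the other end, 37 members (42.5%) had a p-value over 0.01, against 33.9% of the unique list. By biotype the median p-value in the authors' deposited table was 0.00529 for lincRNA genes, 0.00470 for antisense genes and 0.0159 for processed transcripts.

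The Foxp1KspKO list held 1 of the 87 members (1.15%), against a background of 3.33% of the unique list. The only member in both was 4930412M03Rik, a lincRNA gene on chromosome 11 from 60112217 to 60115232 (GRCm38). The authors' deposited table gave it 0.00283 in the Foxp1KspKO ChIP against 3.32e-14 in the control ChIP, which is the lowest control value of any member. The gene lies inside the span of Rai1, a transcriptional regulator gene, which was absent from the Foxp1KspKO list and had 0.00265 in the control ChIP in the authors' deposited table. Unique genes that were also in the Foxp1KspKO list reached 3.35e-13 at most in the control ChIP, and 2 members lay under that value, 4930412M03Rik and Gm14549. Gm14549 had 3.31e-13 in the control ChIP in the authors' deposited table and no Foxp1KspKO value.

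**Figure D1:**
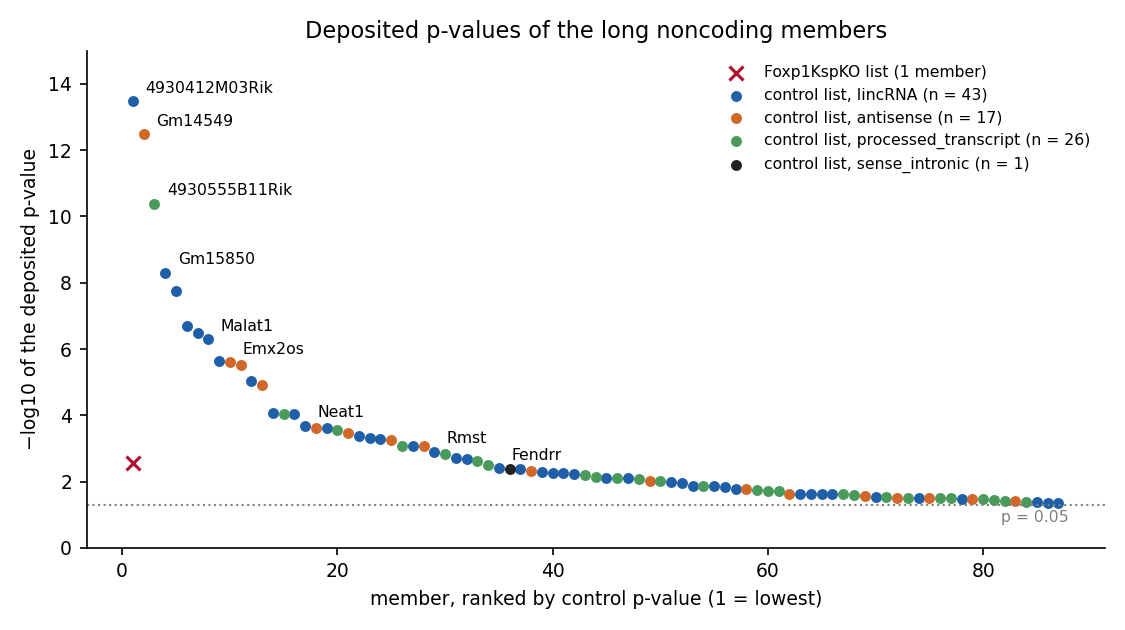
The −log10 of the p-value in the authors' deposited table (vertical) is drawn for each of the 87 members in order of control p-value (horizontal), coloured by biotype, with a cross for the Foxp1KspKO value. The values fall steeply over the first members, and 8 of them have a control p-value under 1e-06. The one cross, at 0.00283, belongs to 4930412M03Rik.

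The strongest members after 4930412M03Rik were spread over several chromosomes and had no Foxp1KspKO value. Gm14549, which RefSeq calls Mdrl, is an antisense gene on chromosome X from 36814768 to 36817200, and Mdrl was described in mouse heart cells as an RNA that affects mitochondrial fission. The processed transcript 4930555B11Rik (chromosome 2, 57181831 to 57188257) had 4.10e-11 in the control ChIP in the authors' deposited table. Gm15850, a lincRNA gene on chromosome 1 that lies 207 bp from the kinesin gene Kif21b, had 4.96e-09 in the authors' deposited table. Kif21b itself had 4.73e-04 in the Foxp1KspKO ChIP in the authors' deposited table and was not in the control list.

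Pclo, 9130015L21Rik, 9230116N13Rik and Malat1 completed the members with control p-values under 1e-06. In the authors' deposited table Pclo had 1.82e-08, 9130015L21Rik 2.09e-07, 9230116N13Rik 3.31e-07 and Malat1 4.96e-07. Next in the authors' deposited table came C230035I16Rik with 2.33e-06 beside Abt1, Emx2os with 2.45e-06 and D430036J16Rik with 3.06e-06, which overlaps the serotonin receptor gene Htr1b. Htr1b had 0.0184 in the Foxp1KspKO ChIP in the authors' deposited table and was not in the control list. The authors' deposited table then gave 9.03e-06 to 9530036O11Rik, whose span overlaps Shh, the hedgehog ligand gene. It gave 1.18e-05 to 4930593C16Rik, which starts 2598 bp from Ctnnb1, the gene of beta-catenin, and 8.49e-05 to 1600020E01Rik beside the RNA-binding protein gene Pcbp1. The last of the 15 lowest values, 8.95e-05 in the authors' deposited table, was that of Vmn1r227. Neither Shh nor Pcbp1 was in a list, and Ctnnb1 had 0.00224 in the Foxp1KspKO ChIP in the authors' deposited table, with no control value.

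The weakest members lay close to the limit of 0.05 that every deposited value meets. They were 4930479D17Rik with 0.0459, 4732491K20Rik with 0.0451 and Gm15328 with 0.0413 in the authors' deposited table. The only sense_intronic gene was Gm8978, with 0.00422 in the authors' deposited table, and RefSeq holds it as protein-coding.

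Of the lists of studied long noncoding genes used here, the members were Malat1, Neat1, Rmst, Emx2os and Fendrr. Malat1 gives an RNA of nuclear speckles, and Neat1 gives the RNA that builds paraspeckles. The genes adjoin each other on chromosome 19, Malat1 from 5795690 to 5802672 and Neat1 from 5824708 to 5845480, with 22036 bp between them. Neat1 had 2.07e-04 in the control ChIP in the authors' deposited table. Frmd8, the protein-coding gene nearest to Neat1, had 0.0107 in the Foxp1KspKO ChIP in the authors' deposited table and no control value.

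Rmst, a long noncoding gene of neural differentiation, had 0.00124 in the control ChIP in the authors' deposited table, and the member Gm20757, 6123 bp away on chromosome 10, had 0.0104. Emx2os lies 55 bp from Emx2, the homeobox gene required for the urogenital system. Emx2 had 0.00146 in the control ChIP in the authors' deposited table, a weaker value than the 2.45e-06 of Emx2os, and neither had a Foxp1KspKO value. Fendrr (chromosome 8, 121054882 to 121083110) is a lateral mesoderm gene transcribed away from the forkhead gene Foxf1, 1276 bp off. It had 0.00402 in the control ChIP in the authors' deposited table, and Foxf1 was in neither list.

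The 5 lists of studied long noncoding genes were set beside the members and both deposited lists. In number the 87 members equal 0.683% of all RefSeq long noncoding genes, although RefSeq holds 8 of the 87 as protein-coding. Of all RefSeq long noncoding genes, 245 were in the Foxp1KspKO list, 300 in the control list and at least 12320 in neither. Of 25 long noncoding genes beside Hox and other developmental regulators, the Foxp1KspKO list held 4 and the control list 8, and 2 were members, Emx2os and Fendrr. The 4 in both lists were Hotair, Pax6os1, Pou3f3os (also called Pantr1) and Otx2os1. Hotair, transcribed from the HoxC cluster, had 0.00265 in the Foxp1KspKO ChIP against 1.86e-06 in the control ChIP in the authors' deposited table. Of the 9 imprinted genes looked up, which include H19, Meg3 and Kcnq1ot1, 0 were in a list. Igf2os, at the imprinted Igf2 locus, was not among those 9 and was in both lists, with 0.00197 in the Foxp1KspKO ChIP against 1.23e-12 in the control ChIP in the authors' deposited table. Of 4 genes of the X inactivation centre, both lists held Xist and Jpx, and neither held the other 2. Jpx had 9.06e-04 in the Foxp1KspKO ChIP against 2.74e-07 in the control ChIP in the authors' deposited table, and Xist had 4.47e-04 in the Foxp1KspKO ChIP against 2.19e-05 in the control ChIP. Of 32 host genes of small RNAs, 4 were in the Foxp1KspKO list, 6 in the control list and 0 among the members. Gas5, a growth arrest transcript among them, had 7.81e-05 in the Foxp1KspKO ChIP against 1.25e-06 in the control ChIP in the authors' deposited table. Of 17 other widely studied genes, 2 were in the Foxp1KspKO list, 5 in the control list and 3 among the members.

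Promoters of the members were searched for the forkhead letters TGTTTAC on either strand. RefSeq promoters, which run from 250 bases before to 50 after a gene's start, were at hand for 71 of the 87 members. The letters were in 1 of them (1.41%), that of Fendrr, against 3.55% of all 27025 promoters of that length. Among promoters of long noncoding genes they were in 7.14% of the 98 in both lists and 4.70% of the 9200 in neither. The shorter letters TGTTTA, which the longer ones contain, were in 12 member promoters (16.9%), against 13.4% of all promoters. They were in 13.3% of the promoters of long noncoding genes in both lists and 16.9% of those in neither. No peak position was used, so these letters describe the sequence and not a binding site.

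Shown next are promoters of the strongest members that have one, of Malat1 and Fendrr for their matches, and of Gm17733 for its neighbour 67 bp away. Capitals mark TGTTTAC or its reverse complement in Fendrr and TGTTTA or its reverse complement in Malat1, and the other 3 hold neither. The sequences are from RefSeq for GRCm38.p6, 5′ to 3′ on the gene's strand. They are chrX:36817151-36817450 (minus) for Gm14549, chr2:57181581-57181880 (plus) for 4930555B11Rik and chr19:5802623-5802922 (minus) for Malat1. Fendrr is at chr8:121083061-121083360 (minus) and Gm17733 at chr6:115134786-115135085 (minus). The match in Malat1 begins 197 bases before the start and that in Fendrr 129 bases before it.
Gm14549: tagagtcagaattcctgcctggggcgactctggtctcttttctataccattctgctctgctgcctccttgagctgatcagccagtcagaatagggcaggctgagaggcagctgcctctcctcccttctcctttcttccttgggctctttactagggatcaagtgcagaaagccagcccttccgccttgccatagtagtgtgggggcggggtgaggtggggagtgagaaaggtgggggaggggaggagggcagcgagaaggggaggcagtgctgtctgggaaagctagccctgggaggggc
4930555B11Rik: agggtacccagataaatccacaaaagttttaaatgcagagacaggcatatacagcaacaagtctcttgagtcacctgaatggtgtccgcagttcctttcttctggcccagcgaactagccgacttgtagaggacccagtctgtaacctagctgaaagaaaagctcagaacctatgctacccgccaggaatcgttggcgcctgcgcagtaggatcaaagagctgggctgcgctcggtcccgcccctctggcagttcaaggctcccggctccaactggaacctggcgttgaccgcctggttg
Malat1: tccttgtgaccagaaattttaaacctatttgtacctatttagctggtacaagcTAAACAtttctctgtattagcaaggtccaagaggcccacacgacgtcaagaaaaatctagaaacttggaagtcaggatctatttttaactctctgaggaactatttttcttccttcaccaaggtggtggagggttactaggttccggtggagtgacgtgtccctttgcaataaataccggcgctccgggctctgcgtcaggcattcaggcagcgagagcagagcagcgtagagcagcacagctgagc
Fendrr: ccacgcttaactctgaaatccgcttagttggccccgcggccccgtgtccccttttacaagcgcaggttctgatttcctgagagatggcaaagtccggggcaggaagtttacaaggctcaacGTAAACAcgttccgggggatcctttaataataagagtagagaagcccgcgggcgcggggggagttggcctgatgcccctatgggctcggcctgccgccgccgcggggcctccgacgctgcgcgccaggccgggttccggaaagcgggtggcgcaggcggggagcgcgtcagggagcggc
Gm17733: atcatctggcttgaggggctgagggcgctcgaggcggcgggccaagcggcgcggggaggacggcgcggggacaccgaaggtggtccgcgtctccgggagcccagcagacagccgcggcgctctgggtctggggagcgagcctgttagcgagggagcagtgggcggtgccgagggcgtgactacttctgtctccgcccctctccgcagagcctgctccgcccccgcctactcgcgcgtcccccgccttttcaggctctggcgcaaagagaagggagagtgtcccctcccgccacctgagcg

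The CG dinucleotides of these 5 promoters ranged from 4 to 33. Gm14549 has 4 CG dinucleotides in its 300 bases and 4930555B11Rik has 13. Malat1 has 10, Fendrr 31 and Gm17733 33.

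Member promoters held more CG dinucleotides than promoters of long noncoding genes outside the lists. At least 20 were in 20 of the 71 member promoters (28.2%), in 33.7% of the 98 promoters of long noncoding genes in both lists, and in 9.04% of the 9200 in neither. The median was 6 in members, 9 for genes in both lists and 4 for genes in neither. Over all 27025 promoters of every gene class, 26.8% held at least 20 and the median was 7, close to the members. For protein-coding genes of the unique list the share was 45.3% of 2615 promoters. Among the 65 promoters of members that RefSeq holds as long noncoding the share was 29.2%. The content was tied to position, with a median of 23 for the 19 members that start within 5 kb of a protein-coding gene's start on the opposite strand and point away from it. The median was 4 for the 47 members with no protein-coding start in any orientation within 5 kb, and the 5 members of opposite-strand pairs that are not divergent enter neither median. The part of base composition in the listing was not tested. Which genes the authors' annotation held is not given in the sources used here. Genes in neither list may therefore include some that could not be listed, and this was not tested either.

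**Figure D2:**
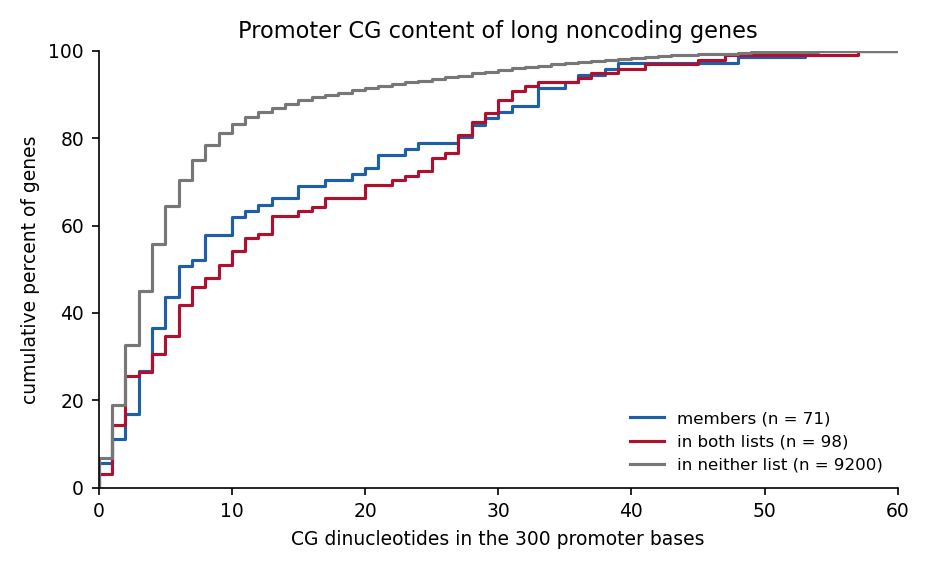
Cumulative percent of long noncoding genes (vertical) by the number of CG dinucleotides in the 300 promoter bases (horizontal), for 71 members, 98 genes in both lists and 9200 genes in neither. The line of the members lies below that of genes in neither list over most of the range, and 28.2% of members against 9.04% of those genes have 20 or more.

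Many members start beside a protein-coding gene. Of the 71 members with a known start, 24 (33.8%) lay within 5 kb of the start of a protein-coding gene, as did 37.8% of the 98 long noncoding genes in both lists and 17.7% of the 9200 in neither. Judged by the nearest starts, the genes ran away from each other in 19 of the 24 pairs. Their full spans can still overlap, as for AI646519 and Pax1. In 5 pairs the member lay on the opposite strand and started downstream of its neighbour's start, and in 0 the genes shared a strand. Divergent pairs made up 26.8% of members, 21.4% of long noncoding genes in both lists and 10.4% of those in neither. The set in neither list may include genes that the authors' annotation did not hold. The median gene span was 13227 bp for members, 12120 bp for long noncoding genes in both lists and 8349 bp for those in neither.

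Whether the neighbours of members were listed more or less often than those of other long noncoding genes depended on how the neighbour was found and on the set beside it. The protein-coding gene with the nearest start was in the Foxp1KspKO list for 23.9% of members, 24.5% of long noncoding genes in both lists and 26.2% of those in neither. It was in the control list for 32.4% of members, 30.6% of long noncoding genes in both lists and 36.0% of those in neither. By gene span, the nearest gene was in the Foxp1KspKO list for 32.2% of members, 22.5% of long noncoding genes in both lists and 26.3% of those in neither. It was in the control list for 35.6% of members, 41.9% of long noncoding genes in both lists and 37.9% of those in neither. Over all protein-coding genes the shares were 20.9% in the Foxp1KspKO list and 29.0% in the control list. Of the 87 neighbours by gene span, 10 were in the Foxp1KspKO list alone, 13 in the control list alone, 18 in both and 46 in neither.

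Members did not share a p-value with listed genes close by. Another gene of the control list lay within 100 kb of 50 members, and 0 of them shared its p-value. Exact ties with genes farther away did occur. The same p-value as some other gene of the control list was found for 68 members, and for 9 members such a gene was on the same chromosome. These shares were not counted over all genes of the control list. Where the nearest protein-coding gene by span was in the control list, 9 of 31 members had the lower p-value and 22 had the higher. Of these 31 neighbours, 18 were also in the Foxp1KspKO list, from which the choice of members kept out nearly all members. The same split was not counted for other genes, so it is no trait of the members.

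Of the 24 protein-coding partners with starts within 5 kb, 8 were in the Foxp1KspKO list and 9 in the control list. The pairs named in this account of neighbours were chosen after their values were seen. By list, the partner was in the Foxp1KspKO list alone in 3, in the control list alone in 4, in both in 5 and in neither in 12. Of the 5 partners in both lists, 4 had the lower p-value in the Foxp1KspKO ChIP, as did 883 of the 3086 genes in both lists. Syn2, a synaptic vesicle gene whose start lies 67 bp from that of Gm17733, had 1.00e-10 in the Foxp1KspKO ChIP against 5.54e-09 in the control ChIP in the authors' deposited table. Gm17733 had 8.96e-05 in the control ChIP there and was not in the Foxp1KspKO list. Kif3a, a motor subunit needed to build cilia, had 2.37e-06 in the Foxp1KspKO ChIP against 1.03e-05 in the control ChIP in the authors' deposited table. Its partner A430108G06Rik, 56 bp away, was listed for the control ChIP alone, with 0.0136 in the authors' deposited table. For 1110019D14Rik, with 0.0235 in the control ChIP, the partner 2610001J05Rik at 51 bp had 3.48e-07 in the Foxp1KspKO ChIP against 3.86e-04 in the control ChIP in the authors' deposited table. Actrt1, whose start lies 96 bp from that of 4930515L19Rik, had 1.18e-04 in the Foxp1KspKO ChIP against 6.34e-04 in the control ChIP in the authors' deposited table. Armcx4, Tef and Stard3, with starts 57, 60 and 85 bp from those of members, were in neither list. The members' own absence from the Foxp1KspKO list follows from how they were chosen and sets up no contrast with these partners. The region around a gene that was scored is not given in the sources used here.

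Further members and their neighbours are given as single cases. The antisense gene 4930486I03Rik (0.0386 in the control ChIP in the authors' deposited table) overlaps Pkhd1, the gene of recessive polycystic kidney disease, which was in neither list. A630012P03Rik on chromosome X (3.55e-04 in the control ChIP) overlaps Gpc3, the glypican gene of an overgrowth syndrome with renal dysplasia, which had 0.00127 in the Foxp1KspKO ChIP against 1.62e-05 in the control ChIP in the authors' deposited table. The processed transcript 2610035F20Rik, 185 bp from the zinc finger gene Zic2, had 0.0183 in the control ChIP in the authors' deposited table. Zic2 had 6.36e-05 in the Foxp1KspKO ChIP against 5.27e-10 in the control ChIP in the authors' deposited table.

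The genes beside other members ranged from strongly listed to absent from both lists. Gm12592 (0.00993 in the control ChIP in the authors' deposited table) overlaps the zinc finger gene Patz1, which had 1.90e-06 in the Foxp1KspKO ChIP against 6.77e-11 in the control ChIP in the authors' deposited table. Usp9x, a deubiquitinase gene 25687 bp from 5730405O15Rik, had 7.18e-05 in the Foxp1KspKO ChIP against 4.48e-31 in the control ChIP in the authors' deposited table, while 5730405O15Rik had 0.0309 there. The helicase gene Dhx15, 135 bp from 9230114K14Rik, was in the control list alone with 5.79e-05 in the authors' deposited table, against 4.84e-04 for the member. Has2os (0.0317 in the authors' deposited table) and AI646519 (0.0315) overlap Has2, a hyaluronan synthase gene, and the paired-box gene Pax1, both in neither list.

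**Figure D3:**
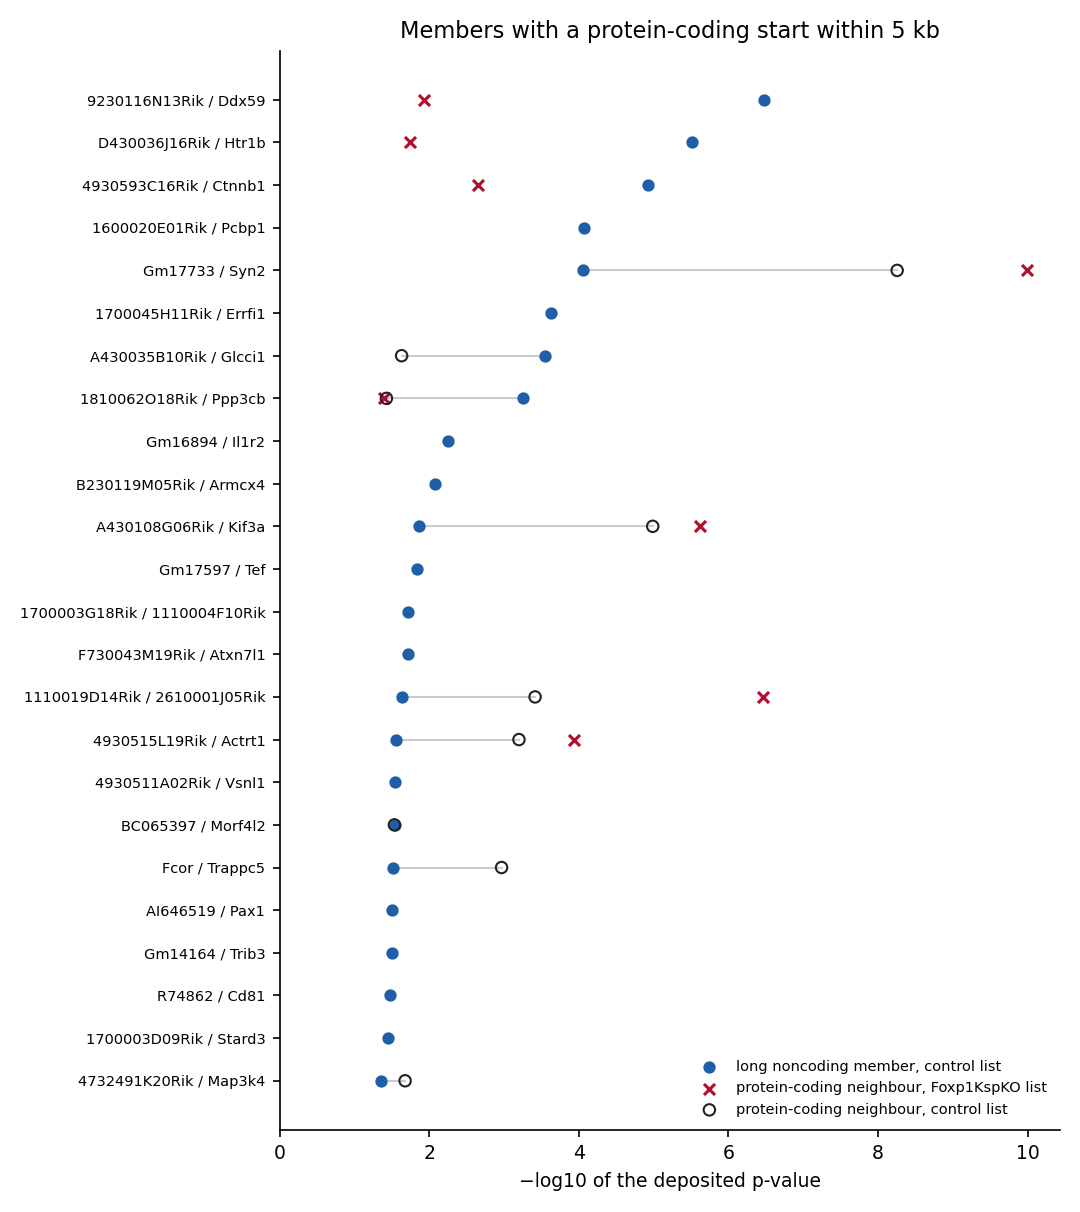
The −log10 of the p-value in the authors' deposited table (horizontal) for the 24 members with a protein-coding start within 5 kb and for those neighbours, 1 pair to a line (vertical), with the strongest member at the top. Crosses are neighbours in the Foxp1KspKO list, open circles neighbours in the control list, and filled circles the members. Of the neighbours, 5 have both marks, 3 a cross alone and 4 an open circle alone. Syn2, Kif3a, 2610001J05Rik and Actrt1 have crosses to the right of their circles, and 12 of the members have no listed neighbour.

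Long noncoding genes of both lists were also counted by RefSeq biotype, under which 79 of the 87 members are long noncoding. By that count, the Foxp1KspKO list held 245 long noncoding genes and the control list 300, of which 129 were in both. That is 52.7% of the Foxp1KspKO genes and 43.0% of the control genes. For protein-coding genes the overlap was 63.4% of the Foxp1KspKO list and 45.7% of the control list. Of the 171 long noncoding genes in the control list alone, 67 (39.2%) were not in the unique list, against 255 of 3444 protein-coding genes (7.40%). The same share was 14.3% of 63 microRNA genes, 47.1% of 34 genes of other RefSeq biotypes and 9.35% of all 3713 such genes. The unique list thus held 35.0% of the long noncoding genes of the control list and 51.2% of all its genes. The step that left these genes out is not given in the sources used here.

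**Figure D4:**
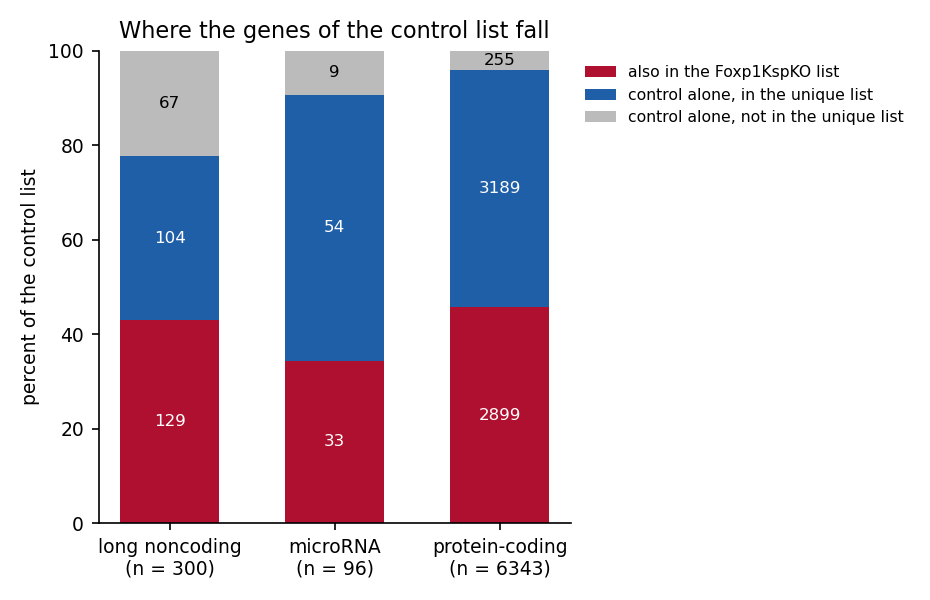
Percent of the control list (vertical) in each of 3 gene classes by RefSeq biotype (horizontal), split into genes also in the Foxp1KspKO list, genes in the control list alone that the unique list holds, and genes in the control list alone that it does not hold. The numbers on the bars are genes. The last part is 67 of 300 for long noncoding genes, 9 of 96 for microRNA genes and 255 of 6343 for protein-coding genes. Genes of other RefSeq biotypes are not drawn.

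Long noncoding genes shared by both lists had lower p-values in the control ChIP than the members. The members were chosen by these p-values, so this is a description only. Over genes of every class the median control p-value in the authors' deposited table was also lower in the control list than in the unique list, 0.00116 against 0.00312. For the 129 shared long noncoding genes the median p-value in the authors' deposited table was 0.00220 in the Foxp1KspKO ChIP against 5.29e-04 in the control ChIP. The control value was the lower for 79 of the 129, and for 2203 of the 3086 genes of every class in both lists. The 3 lowest control p-values of long noncoding genes outside the unique list belonged to genes in both lists. The authors' deposited table gave 4932412D23Rik 2.15e-06 in the Foxp1KspKO ChIP against 3.34e-62 in the control ChIP. It gave 1700031P21Rik 2.70e-08 in the Foxp1KspKO ChIP against 1.56e-41 in the control ChIP, and 5730596B20Rik 2.64e-07 in the Foxp1KspKO ChIP against 8.56e-24 in the control ChIP.

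On the chromosomes the members were uneven. Chromosome 6 held 12 of the 87 (13.8%), against 6.46% of the unique list and 5.76% of all RefSeq long noncoding genes. The X chromosome held 7 (8.05%), against 6.15% of the unique list and 2.28% of RefSeq long noncoding genes, and chromosome Y held 0. On chromosome 6, 6 members fell between 142814231 and 147702374, a stretch chosen after the values were seen. It holds 46 RefSeq long noncoding genes, so members are 13.0% of them there. Over the genome the 87 members equal 0.683% of such genes in number, with the 8 that RefSeq holds as protein-coding counted in. No other 5 Mb stretch that does not overlap it held more than 3 members. The 6 are Gm7457, 1700060C16Rik, Gm15706, 4930479D17Rik, E330012B07Rik and 1700049E15Rik, with control p-values from 2.34e-04 for Gm15706 to 0.0459 for 4930479D17Rik in the authors' deposited table. Of the 30 protein-coding genes in the stretch, 6 were in the Foxp1KspKO list and 10 in the control list.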

How the data were processed

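The authors deposited 3 lists of genes with 1 p-value per gene as they computed it, every value under 0.05, and a biotype column in the unique list only. Per the submitters' processing notes, the tools include edgeR, deepTools, Bowtie2, Trimmomatic and FastQC, and the builds named are GRCm38 and mm10. Which test and library the p-values rest on, whether they were adjusted and which region of a gene was scored is not given in the sources used here. The lists carry no read number, so depth is unknown and no interval is given for a p-value. Sheet names were matched to the sample descriptions.

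The NCBI gene number joined the lists, and a repeated number kept its lowest p-value (pandas 2.3.3, Python 3.11.15). All 87 members had coordinates in the RefSeq table for GRCm38.p6, and all had the same p-value in the control list. Starts and strands come from the RefSeq promoter table, which covers 71 members and not every protein-coding gene, so pairs in which a gene has no start there (such as Fendrr and Foxf1, or Emx2os and Emx2) were measured by gene span. Where a gene has several starts, the nearest was used for distance and the first for sequence. The functions that find neighbours and letters were tested on simulated data.

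With 1 library per group nothing was tested, and shares are set beside the same share over other genes. Shares over RefSeq genes may count genes that the authors' annotation lacked, since that annotation is not given in the sources used here. Named genes were the 15 lowest control p-values, members in both lists, the highest p-values, up to 3 per biotype, 5 gene lists and nearest protein-coding genes. Members and lists were chosen with earlier results of these data known. The alternatives were other biotype sets, joins, distances, letters and p-value limits, and leaving out the 8 members that RefSeq holds as protein-coding, an alternative chosen after seeing the data.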

Additional observations from a re-analysis of the deposited data

How the results depend on the processing

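Of 25 alternative values, 23 stayed within 1.5 times the reported count or within its 95% interval, and none was reversed. The interval was the exact Clopper-Pearson interval for a share and the order-statistic interval for the median, and it covers counting error only. With lincRNA and antisense genes alone there were 60 members, of which 7 had a control p-value under 1e-06. Without the 8 members that RefSeq holds as protein-coding, 79 members were left, 7 were under 1e-06, and 23 had a protein-coding start within 5 kb. Joining by symbol or by Ensembl identifier, or asking for a Foxp1KspKO p-value under 0.01, left 1 member in the Foxp1KspKO list each time. Starts within 1 kb and 10 kb gave 17 and 27 members. The share of promoters with forkhead letters depended on the letters: it was 1.41% for TGTTTAC, 9.86% for TGTTTAC or TGTTTAT and 16.9% for TGTTTA, since shorter or looser letters match more sequences by construction. No paired analysis was possible because each group holds 1 library and no test was made, and no library could be left out. Unknown depth, the unsettled antibody label and the lack of peak positions limit all values.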

Other observations

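The 67 long noncoding genes of the control list alone that the unique list left out had a median control p-value of 0.00606 in the authors' deposited table. The lowest belonged to 2610016A17Rik with 1.06e-07, Gm19522 with 2.06e-07 and Flicr, an X-linked gene beside Foxp3, with 2.46e-07, named here after their values were seen. Lhx1os, beside the kidney regulator gene Lhx1, was also left out, with 1.70e-06 in the authors' deposited table. Of the 26 long noncoding genes labelled protein_coding in the unique list, 5033430I15Rik had 1.62e-18 in the authors' deposited table, a lower value than that of any member. Gm7854 had 2.86e-13 in the authors' deposited table, a value that only the member 4930412M03Rik lies under.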
